A study of Mus musculus with 20 samples.

Results

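The transcripts that carry glucose through glycolysis, and into and out of glycogen, were followed in liver and in gastrocnemius muscle of WT and Adck2+/- mice. The set was chosen by name. It held 34 genes of glucose transport, glycolysis, lactate formation, glycogen synthesis and glycogen breakdown, out of 16593 genes with a probe on the array. Of these, 31 genes were matched by 52 probes. No probe was matched here to Gpi1, Eno1 or Ldhb, which are named only. The probes of Hk1, Pgm2 and Gbe1 did not pass the filter on detection in either tissue. The filter kept 28 genes in at least 1 tissue, 21 in liver and 25 in muscle, with 18 in both. The kept genes are therefore those with a measurable signal and are not the whole set.

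The mice were males of strain B6N, and RNA was taken from 5 WT and 5 Adck2+/- animals for each tissue, 20 arrays in all. Adck2+/- mice carried 1 deleted copy of Adck2, which encodes a mitochondrial protein kinase of the aarF domain family, in every tissue, and they descended from embryonic stem cells of a knockout repository. The labels give the age as 3 years, whereas the methods of the study give 6 months. Neither an agent nor another allele was named for any group. The arrays were Illumina mouse bead arrays, on which a probe gives 1 mean signal, and signals were background-corrected, quantile normalized and expressed as log2 values. Levels of different probes cannot be set against each other, so each gene is compared only with itself. The labels do not say whether the same mice gave both tissues. The tissue and interaction fits took all 20 arrays as independent, so their p-values do not allow for shared mice. Each p-value sets a difference against the spread between these samples.

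Between 11626 and 12604 probes were detected on an array. The 6 muscle fibre markers were all higher in muscle, and the 5 hepatocyte markers that could be measured were all higher in liver, as the labels state, while the sixth hepatocyte marker, Fgb, was detected on no array of either tissue. The genotypes could not be checked on Adck2 itself, whose probe was above background on 3 liver and 3 muscle arrays. Several arrays stood apart. In liver, WT 3, Adck2+/- 1 and Adck2+/- 4 differed from the other 7. In muscle, WT 2 had the lowest adipocyte marker level and Adck2+/- 5 the highest, hepatocyte transcripts were highest in Adck2+/- 4, and WT 3 was low in markers of slow fibres. In whole tissue, fewer cells of a type and less RNA per cell cannot be told apart.

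Glycolysis splits glucose into pyruvate and yields ATP without oxygen, and glycogen is the branched glucose store that feeds it. Many steps are catalyzed by tissue-specific isozymes encoded by separate genes. Skeletal muscle is known to break down its glycogen for its own contraction and to take up glucose through the insulin-responsive transporter GLUT4. Liver stores glycogen to supply the blood, exports glucose through GLUT2, and carries isozymes that respond to the fed and fasted state.

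For 3 isozyme pairs that differ between the tissues, the promoter windows are shown because 1 gene of each pair was higher in muscle and the other in liver on the same arrays. They are from RefSeq, build GRCm38.p6, and run from 250 bases before to 50 bases after the annotated start, in the direction of the gene. A promoter was found for 32 of the 34 genes. Capitals mark the myogenic E-box CAGCTG and the MEF2 box, searched on both strands. Pgam2 lies at chr11:5803747-5804046 on the minus strand, Pgam1 at chr19:41911621-41911920 on the plus strand, Pygm at chr19:6384158-6384457 on the plus strand, Pygl at chr12:70227634-70227933 on the minus strand, Phkg1 at chr5:129879039-129879338 on the minus strand and Phkg2 at chr7:127573098-127573397 on the plus strand.
Pgam2: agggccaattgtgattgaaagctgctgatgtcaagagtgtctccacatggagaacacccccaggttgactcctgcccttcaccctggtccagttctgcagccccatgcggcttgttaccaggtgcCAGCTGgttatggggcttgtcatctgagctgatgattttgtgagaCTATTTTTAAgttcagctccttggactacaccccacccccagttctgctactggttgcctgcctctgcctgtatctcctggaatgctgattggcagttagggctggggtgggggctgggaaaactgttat
Pgam1: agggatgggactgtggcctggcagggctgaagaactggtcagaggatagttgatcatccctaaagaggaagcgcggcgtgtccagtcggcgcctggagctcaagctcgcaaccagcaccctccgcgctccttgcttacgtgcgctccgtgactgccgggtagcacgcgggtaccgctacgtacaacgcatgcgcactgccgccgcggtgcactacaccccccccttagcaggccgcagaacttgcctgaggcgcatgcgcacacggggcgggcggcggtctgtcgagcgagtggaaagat
Pygm: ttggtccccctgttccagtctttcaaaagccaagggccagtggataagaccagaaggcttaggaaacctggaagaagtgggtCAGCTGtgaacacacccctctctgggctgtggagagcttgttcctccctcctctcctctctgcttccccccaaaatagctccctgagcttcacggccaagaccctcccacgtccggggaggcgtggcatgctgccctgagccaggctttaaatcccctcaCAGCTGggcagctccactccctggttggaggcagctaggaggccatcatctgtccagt
Pygl: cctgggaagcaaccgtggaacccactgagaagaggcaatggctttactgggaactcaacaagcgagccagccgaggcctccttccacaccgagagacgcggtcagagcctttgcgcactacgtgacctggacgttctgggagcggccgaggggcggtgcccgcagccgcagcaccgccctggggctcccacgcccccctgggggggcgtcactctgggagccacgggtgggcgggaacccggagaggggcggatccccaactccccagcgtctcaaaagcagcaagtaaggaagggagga
Phkg1: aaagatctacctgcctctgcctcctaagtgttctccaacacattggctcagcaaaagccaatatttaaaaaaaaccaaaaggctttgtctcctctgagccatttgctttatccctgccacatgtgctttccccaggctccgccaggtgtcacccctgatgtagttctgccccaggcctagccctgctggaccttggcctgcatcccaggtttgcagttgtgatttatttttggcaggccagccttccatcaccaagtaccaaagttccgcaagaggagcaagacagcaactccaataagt
Phkg2: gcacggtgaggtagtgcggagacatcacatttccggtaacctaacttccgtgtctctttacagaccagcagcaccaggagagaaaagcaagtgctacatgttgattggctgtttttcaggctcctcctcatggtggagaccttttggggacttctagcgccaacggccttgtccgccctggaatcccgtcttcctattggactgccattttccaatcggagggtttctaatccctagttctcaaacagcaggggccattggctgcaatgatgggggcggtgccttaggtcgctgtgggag

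The Pgam2 window held 1 CAGCTG, which began at position -125 from the start, and 1 MEF2 box at -80. The Pygm window held CAGCTG at -168 and at -8. Neither motif was found in the windows of Pgam1, Pygl, Phkg1 and Phkg2. Among all 32851 promoter windows of this length, 16.3% held CAGCTG and 3.19% held a MEF2 box, so a match is a description of the letters and not a site of binding. CAGCTG also occurred in the windows of Gys1, Phka1 and Eno3, which were higher in muscle, and of Slc2a2, which was higher in liver. The windows of Hk2, which was higher in muscle, and of Pfkl and Phka2, which were higher in liver, held neither motif. Windows of the other genes of the set are not described here.

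The first question was which isozymes each tissue expressed. In WT mice, 18 of the 28 kept genes were higher in muscle than in liver, 8 were lower and 2 did not pass the test. This has to be read against a background of 78.2% of all 9563 genes called between the tissues, 41.3% higher and 36.9% lower in muscle. Of the 28 genes, 10 passed the filter in 1 tissue only, and a gene that passed only where it is high had to differ. Among the 18 genes kept in both tissues 11 were higher in muscle, 5 were lower and 2 did not pass, beside 75.9% of all 7339 such genes called (41.1% higher and 34.8% lower). A difference of more than 4 on the log2 scale was found for 8 of these 18, against 4.54% of all such genes, and their median was 1.61, against 0.10. The adjusted p of the 16 called genes kept in both tissues was 3.61e-05 or lower (limma). In Adck2+/- mice 19 genes were higher in muscle, 8 were lower and 1 did not pass, with 79.4% of all genes called (40.2% higher and 39.2% lower), and 26 genes were called the same way in both genotypes.

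The isozyme sets turned out as follows. Of 11 sets of alternative isozymes or subunits, 8 had more than 1 gene kept. In all 8, in both genotypes, at least 1 gene was higher in muscle and at least 1 was higher in liver. In 6 of the 8, 1 side or both rested on a gene that passed the filter only in the tissue where it was higher, so that side was fixed by the filter. Pfkm with Pfkl and Phka1 with Phka2 were kept in both tissues. For the other 3 sets only Hk2, Eno3 and Ldha could be followed. The plot of isozyme levels by array shows the 8 sets.

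**Figure D1:**
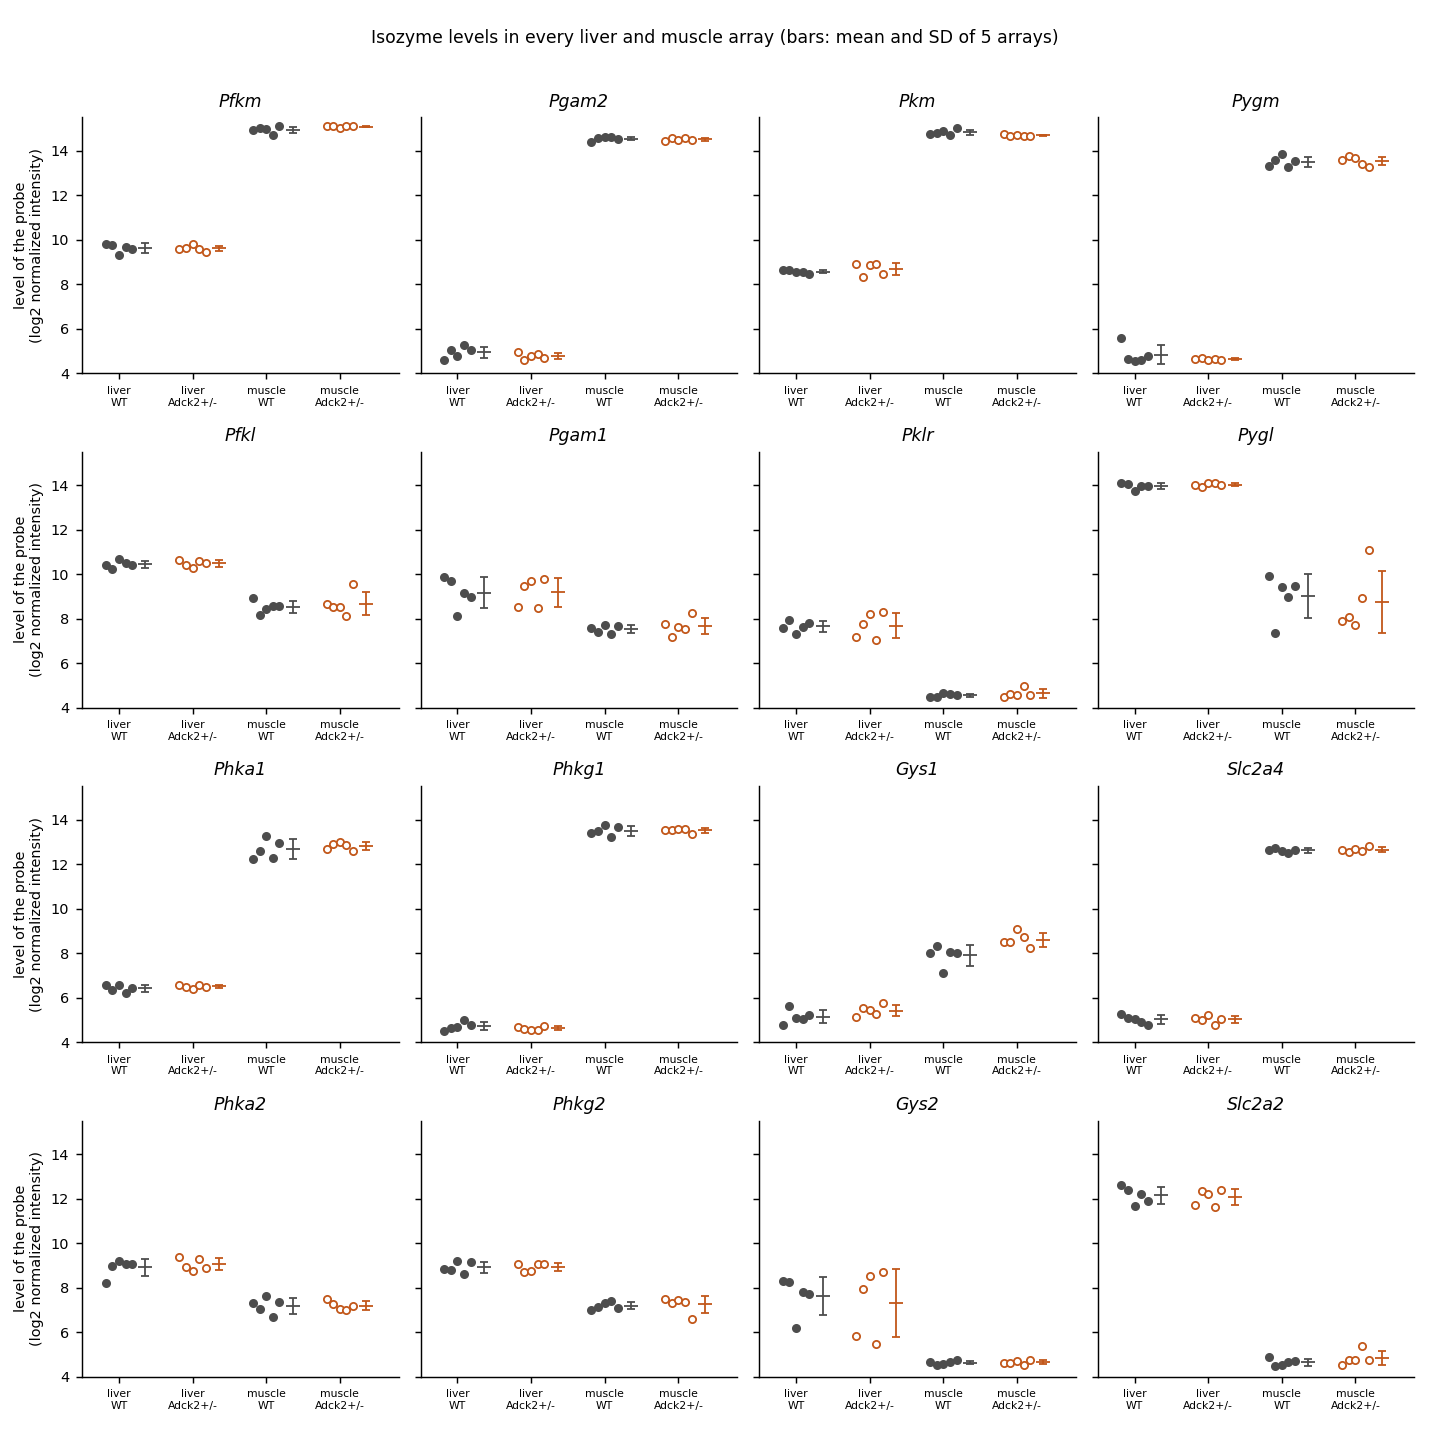
Level of 16 genes (log2 normalized intensity, y axis) on each of 20 arrays, by tissue and genotype (x axis). Points are arrays, filled for WT and open for Adck2+/-, and bars are the mean and SD of 5 arrays. In the rows that begin with Pfkm and Phka1 the muscle arrays lie above the liver arrays, and in the rows that begin with Pfkl and Phka2 below them. Levels can be compared within a panel and not between panels.

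Glucose transport separated the tissues. Slc2a4 encodes GLUT4, and its level was 12.65, 12.74, 12.58, 12.49 and 12.61 on the 5 WT muscle arrays and 5.28, 5.07, 5.06, 4.93 and 4.77 on the 5 WT liver arrays. It was detected on no liver array, so only a bound can be given: at least 152-fold higher in muscle in WT. No p-value is given with a bound, as a gene kept only where it was bright had to differ. Such bounds set the mean of the bright tissue against the lowest signal that still counted as detected on each array of the dim tissue, or the probe's own signal where that was higher. Slc2a2, which encodes the liver transporter GLUT2, read 12.63, 12.37, 11.67, 12.20 and 11.90 in WT liver and 4.86, 4.48, 4.53, 4.65 and 4.68 in WT muscle. It was detected on no muscle array and was at least 113-fold higher in liver in WT. In Adck2+/- mice the bounds were 161-fold for Slc2a4 and 105-fold for Slc2a2.

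Hexokinase 2, the insulin-regulated form of the enzyme that phosphorylates glucose, is encoded by Hk2. It was at 14.11, 14.23, 14.24, 14.19 and 14.20 in WT muscle and at 6.32, 6.70, 7.12, 7.14 and 6.87 in WT liver. The tissues did not overlap, and the difference was 7.36 ± 0.15 (log2, SE) in WT and 7.17 ± 0.15 in Adck2+/- mice.

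Phosphofructokinase commits sugar phosphate to glycolysis and has a muscle, a liver and a platelet subunit. The muscle subunit gene Pfkm gave 14.91, 15.01, 14.97, 14.72 and 15.11 in WT muscle against 9.82, 9.76, 9.30, 9.69 and 9.57 in WT liver, a log2 difference of 5.31 ± 0.11. The liver subunit gene Pfkl gave 8.93, 8.16, 8.46, 8.59 and 8.57 in WT muscle against 10.41, 10.22, 10.67, 10.50 and 10.41 in WT liver, -1.90 ± 0.19. Both genes were expressed in both tissues and neither overlapped between them. A second Pfkl probe, which was much dimmer, differed by -0.40 and was not called. Pfkp, the platelet subunit gene, was dim. It was detected on all 5 WT muscle arrays and on no WT liver array, with a difference of at least 1.69-fold.

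Among the enzymes that turn triose phosphates into pyruvate, the muscle form of phosphoglycerate mutase gave the largest difference of the set. Pgam2 was at 14.41, 14.59, 14.61, 14.62 and 14.55 in WT muscle and at 4.61, 5.06, 4.80, 5.25 and 5.03 in WT liver. It was detected on no liver array and was at least 584-fold higher in muscle in WT and 586-fold in Adck2+/- mice. The widely expressed form, Pgam1, went the other way, with 7.59, 7.42, 7.72, 7.29 and 7.66 in WT muscle and 9.89, 9.68, 8.12, 9.17 and 8.98 in WT liver, -1.63 ± 0.30. Its liver values spread widely, and the lowest of them was that of WT 3, above every WT muscle array.

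The beta-enolase gene Eno3 was at 14.73, 14.84, 14.86, 14.80 and 14.84 in WT muscle and 7.12, 7.10, 7.79, 7.10 and 7.10 in WT liver (7.57 ± 0.16). Pyruvate kinase has a muscle gene, Pkm, and a liver and erythrocyte gene, Pklr. Pkm was at 14.76, 14.80, 14.88, 14.73 and 15.02 in WT muscle and 8.62, 8.65, 8.54, 8.57 and 8.46 in WT liver (6.27 ± 0.11). Pklr was at 7.59, 7.92, 7.30, 7.64 and 7.82 in WT liver and 4.46, 4.50, 4.65, 4.62 and 4.56 in WT muscle, where no array detected it, and it was at least 5.01-fold higher in liver. Ldha, the gene of the lactate dehydrogenase subunit that favors lactate, was bright in both tissues, with 14.61, 14.96, 14.74, 14.94 and 14.93 in WT muscle and 13.58, 13.57, 12.90, 13.50 and 13.23 in WT liver (1.48 ± 0.12).

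Glycogen phosphorylase releases glucose from glycogen. Its muscle gene Pygm was at 13.32, 13.59, 13.84, 13.28 and 13.55 in WT muscle and at 5.59, 4.62, 4.56, 4.60 and 4.77 in WT liver, where 1 of the 5 arrays, WT 1, detected it. The measured difference, taken mostly against signals not above background, was 8.69 ± 0.17 in WT, and in Adck2+/- mice, with no liver array detecting it, it was at least 300.1-fold. Pygl, the liver gene, was at 14.11, 14.07, 13.74, 13.98 and 13.97 in WT liver and at 9.93, 7.38, 9.42, 8.98 and 9.48 in WT muscle (-4.93 ± 0.48), and both of its probes gave a similar difference (-4.93 and -4.85). The WT muscle values of the brighter probe ran from 7.38 to 9.93, a wider spread than in liver. Pygb, the brain gene, was dim in both tissues at 7.23, 6.66, 7.23, 6.89 and 6.92 in WT muscle and 6.99, 6.93, 6.45, 6.65 and 6.83 in WT liver, and its difference of 0.21 (95% confidence interval -0.15 to 0.58) did not pass the test.

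Phosphorylase kinase switches the phosphorylase on. Its regulatory alpha subunit has a muscle gene, Phka1, and a liver gene, Phka2, and its catalytic gamma subunit likewise has Phkg1 and Phkg2. Phka1 was at 12.24, 12.60, 13.28, 12.29 and 12.97 in WT muscle and 6.59, 6.34, 6.55, 6.20 and 6.41 in WT liver (6.26 ± 0.16). Phka2 was at 7.31, 7.02, 7.62, 6.67 and 7.34 in WT muscle and 8.20, 8.99, 9.19, 9.06 and 9.07 in WT liver (-1.71 ± 0.19). Neither gene overlapped between the tissues. Phkg1 was at 13.39, 13.49, 13.75, 13.21 and 13.66 in WT muscle and 4.49, 4.64, 4.69, 5.01 and 4.77 in WT liver, where it was not detected, and was at least 281-fold higher in muscle. Phkg2 was at 7.00, 7.11, 7.33, 7.39 and 7.09 in WT muscle and 8.83, 8.78, 9.20, 8.62 and 9.15 in WT liver (-1.73 ± 0.16). The alpha and gamma subunits were thus split by tissue in the same way, while Phkb, the single gene of the beta subunit, was higher in muscle by 3.95 ± 0.15.

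Glycogen synthase extends the chains. Gys1, the muscle gene, was at 7.99, 8.34, 7.09, 8.04 and 8.03 in WT muscle and 4.78, 5.62, 5.09, 5.04 and 5.20 in WT liver, where 1 of 5 arrays detected it. The measured difference of 2.75 ± 0.21 was again taken mostly against signals not above background. These values are from the Gys1 probe that was brightest over all 20 arrays, and the genotype comparison below rests on the other Gys1 probe. Gys2, the liver gene, was at 8.28, 8.23, 6.16, 7.81 and 7.69 in WT liver and 4.64, 4.52, 4.57, 4.67 and 4.73 in WT muscle. No muscle array detected Gys2, which was at least 4.94-fold higher in liver in WT and 3.87-fold in Adck2+/- mice. Gyg, which encodes the glycogenin that primes a new glycogen particle, was higher in muscle by 6.71 ± 0.22 in WT and 7.22 ± 0.22 in Adck2+/- mice.

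The remaining genes have a single main form or none that could be compared. Aldoa, the aldolase gene of muscle, was higher in muscle by 4.28 ± 0.11. Smaller differences were found for Pgm1, the phosphoglucomutase gene (1.74 ± 0.12), Tpi1, the triosephosphate isomerase gene (1.38 ± 0.10), and Pgk1, the phosphoglycerate kinase gene. Pgk1 was detected on no liver array and was at least 1.31-fold higher in WT muscle and 2.55-fold higher in Adck2+/- muscle. Gapdh is often taken as a constant reference. Its brighter probe differed by 0.15 (95% confidence interval -0.07 to 0.36) in WT, which did not pass, and by 0.24 in Adck2+/- mice (adjusted p = 0.0452), while its other probe differed by 0.82 in WT and was called. Without normalization between arrays the brighter probe gave -0.020 in Adck2+/- mice, and the call was lost on leaving out any 1 of 11 of the 20 arrays (adjusted p from 0.0511 to 0.104).

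Very bright probes set a limit to these values. The brightest probe of 8 genes of the set had a mean muscle signal over 20000, and the highest signal on an array ranged from 23980 to 48671. The files hold no mark for saturated beads, and how far bright probes were compressed was not tested.

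**Figure D2:**
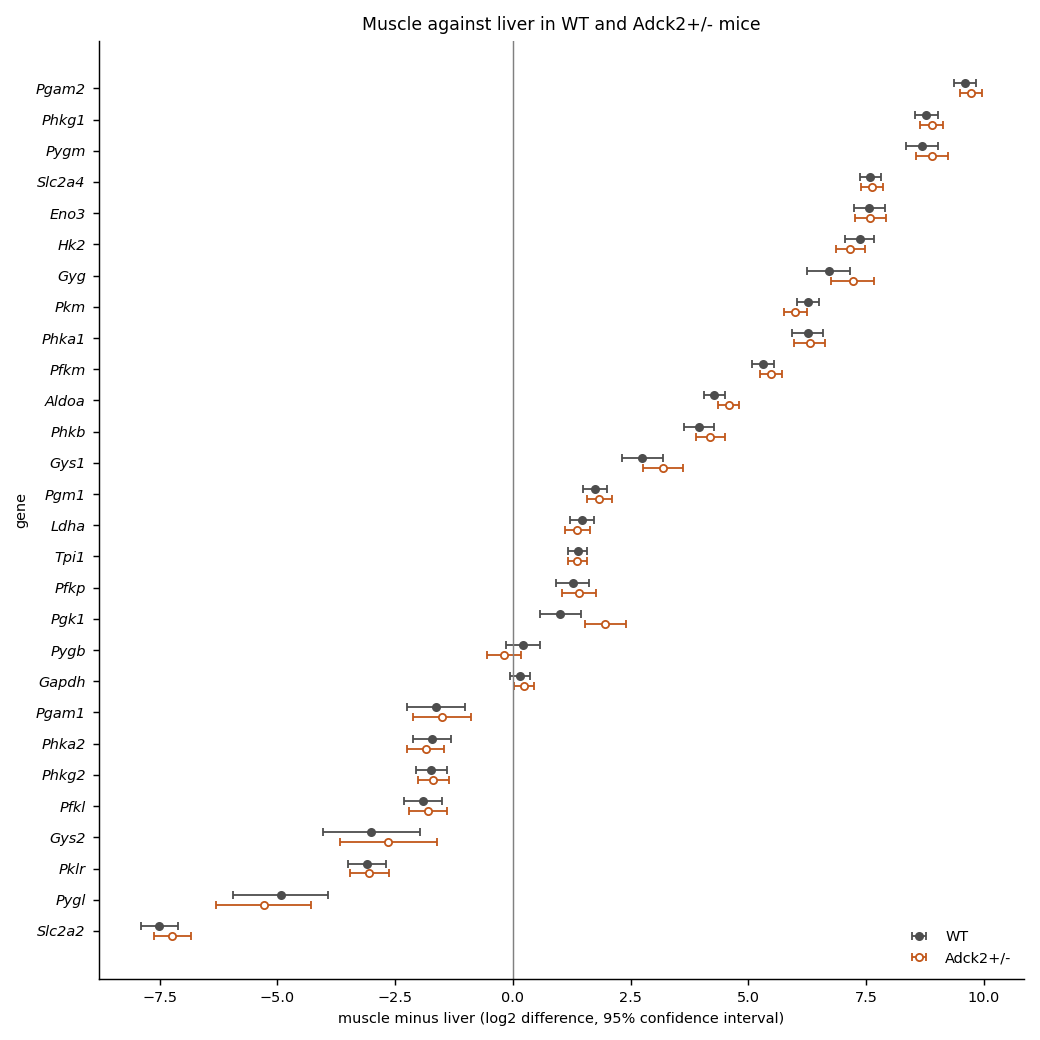
Muscle minus liver (log2 difference with 95% confidence interval, x axis) for the 28 kept genes (y axis) in WT (filled) and Adck2+/- mice (open), ordered by the WT value. Differences ran from -7.51 for Slc2a2 to 9.60 for Pgam2 in WT, and 26 genes were called on the same side in both genotypes. For genes not detected in 1 tissue the plotted value is the measured one, and the bound in the text is smaller.

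The second question was whether the loss of 1 Adck2 copy changed these transcripts. In muscle it did so for none of the 25 kept genes at an adjusted p under 0.05, with 1.89% of all 8424 genes called by limma (104 higher and 55 lower, but 79 higher and 231 lower with median scaling). At an unadjusted p under 0.05 there were 4 genes, Gys1, Pgk1, Gyg and Pygb, against 22.3% of all genes. Of the 25 genes 19 had a value above 0, against 47.8% of all genes, and the median was 0.11, against -0.01. With median scaling in place of quantile normalization 16 were above 0, against 40.6% of all genes. For 16 genes the 95% confidence interval lay within 0.5 log2 units of 0 on both sides, and for 22 it lay within 1.

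Gys1 had the smallest p of the set. Its level was 7.94, 8.24, 6.85, 7.99 and 7.55 on the WT arrays and 8.67, 8.59, 9.01, 8.38 and 8.31 on the Adck2+/- arrays. The groups did not overlap, which held for 1 of 25 genes in the set and for 6.23% of all genes. The difference was 0.88 ± 0.24 (log2, SE; adjusted p = 0.0787, limma), 1.84-fold, and the second Gys1 probe gave 0.69 (adjusted p = 0.0808 in the fit of single probes). WT 3 was the lowest array. Without it the difference was 0.66 with an adjusted p of 0.105. Without Adck2+/- 5, the lowest Adck2+/- array, the difference was 0.95 with an adjusted p of 0.0445, which passed the threshold. Leaving out that array had to widen the difference, and the calls over all genes rose from 159 to 701. This call is therefore no support for a change.

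Pgk1 was dim and close to the detection limit, with 5.97, 5.99, 4.89, 6.17 and 5.46 in WT and 6.50, 6.58, 7.20, 6.13 and 6.52 in Adck2+/- muscle, and 4 of 5 WT arrays detected it. The groups overlapped by a small margin. The difference of 0.89 ± 0.25 did not pass (adjusted p = 0.0847), and without WT 3, again the lowest array, it was 0.68. On WT 3 the markers of slow fibres (8 of 8 kept) averaged 1.18 log2 units below the mean of the muscle arrays, while the other arrays lay between -0.15 and 0.28. The part of this array's composition in both genes was not tested.

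Gyg read 12.47, 12.69, 12.37, 12.36 and 12.59 in WT and 12.91, 12.69, 12.90, 12.79 and 12.66 in Adck2+/- muscle. Of the Adck2+/- arrays 3 of 5 lay above all WT arrays, and the difference of 0.29 ± 0.10 did not pass (adjusted p = 0.130). Pygb read 7.13, 6.57, 7.14, 6.80 and 6.83 in WT and 6.41, 6.44, 6.55, 6.26 and 6.97 in Adck2+/- muscle, -0.37 ± 0.15 (adjusted p = 0.192). Here 4 of 5 Adck2+/- arrays lay below all WT arrays and Adck2+/- 5 lay among the higher WT values. Pkm, with the fifth smallest p, read 14.68, 14.73, 14.82, 14.64 and 14.97 in WT and 14.67, 14.56, 14.61, 14.56 and 14.59 in Adck2+/- muscle, -0.17 ± 0.09 (adjusted p = 0.310), and its groups overlapped.

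**Figure D3:**
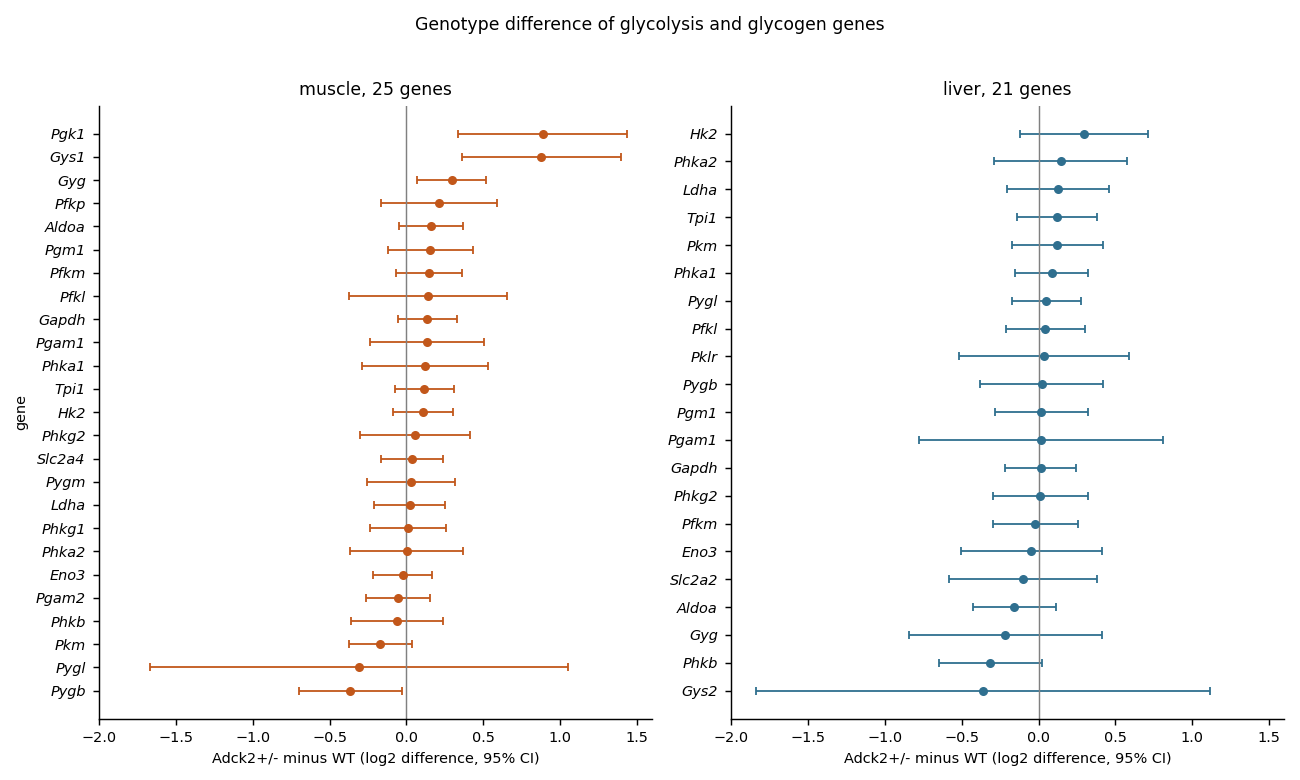
Adck2+/- minus WT (log2 difference with 95% confidence interval, x axis) for the genes kept in muscle (left) and in liver (right), ordered by value (y axis). None passed the adjusted threshold in either tissue. Gys1 and Pgk1 lie near 0.88 in muscle, and Pygl in muscle and Gys2 in liver have the widest intervals.

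Several genes that were higher in muscle than in liver had narrow intervals around 0. The differences of Pgam2, Eno3, Pygm, Phkg1, Slc2a4 and Phkb lay between -0.06 and 0.04, and the widest of their intervals was that of Phkb (-0.36 to 0.24). Aldoa, Gapdh, Pfkm, Tpi1, Hk2 and Pgm1 all lay between 0.11 and 0.16 above WT, and none passed the test (smallest adjusted p = 0.341 for Aldoa). A p over the threshold does not show that the groups are equal. The intervals give the sizes that remain possible for the normalized signals, and for transcripts only where probes were not compressed. Pgam2, Eno3, Aldoa, Gapdh, Pfkm and Tpi1 had muscle signals near the top of the range, and how far they were compressed was not tested.

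Pygl was the least certain gene in muscle. It read 9.78, 7.27, 9.29, 8.86 and 9.36 in WT and 7.76, 7.95, 7.60, 8.78 and 10.92 in Adck2+/- muscle, with WT 2 lowest and Adck2+/- 5 highest, so the difference was -0.31 ± 0.62 with a 95% confidence interval of -1.67 to 1.05, and its second probe gave 0.30. The adipocyte markers, of which 7 of 8 had a probe and 5 were kept, followed the same order at the ends: their mean ranged from -1.57 to 0.80 around the muscle mean in WT and from -0.86 to 1.76 in Adck2+/- mice, lowest in WT 2 and highest in Adck2+/- 5. The defining marker Fabp4 was detected on no muscle array and Adipoq on all 10. The hepatocyte markers, of which 4 of 6 were kept in muscle, varied more. Their mean was lowest in WT 2 (-1.95) and highest in Adck2+/- 4 (3.36), with -0.88 in Adck2+/- 5. The part of fat tissue or of hepatocyte transcripts in the Pygl values was not tested. Without WT 2 and Adck2+/- 5, Pygl differed by -1.30 (adjusted p = 0.0222), Pygb by -0.56 (adjusted p = 0.0289) and Gys1 by 1.08 (adjusted p = 0.0279). These 3 of 25 genes passed the threshold, beside 8.88% of all 8194 genes in that fit. The arrays left out held the lowest WT and the highest Adck2+/- value of both Pygl and Pygb. For Gys1 they held the highest WT and the lowest Adck2+/- value. Leaving them out therefore had to widen all 3 differences and to lower the spread of Pygl. These calls are no support for a change.

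Probes of the same gene did not always read alike. When each probe was tested by itself, 3 of 40 probes of the set were called in muscle, all higher in Adck2+/- mice, against 5.62% of all 11438 probes. They were not the brightest probe of their gene. The Pfkm probe ILMN_1252214 gave 11.51, 11.71, 10.25, 11.81 and 11.52 in WT and 12.49, 12.30, 12.98, 12.24 and 12.44 in Adck2+/- muscle, a difference of 1.13 (adjusted p = 0.0316). The groups did not overlap, WT 3 was the lowest array, and without it the difference was 0.85 (adjusted p = 0.0154). The brightest Pfkm probe, at 14.85, 14.95, 14.91, 14.63 and 15.04 in WT and 15.04, 15.04, 14.97, 15.04 and 15.04 in Adck2+/- muscle, differed by 0.15, and the third by -0.08. On 4 Adck2+/- arrays the brightest probe held the top rank and so received the same normalized value.

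The Phka1 probe ILMN_2755333 gave 7.18, 7.60, 7.80, 7.17 and 7.58 in WT and 8.06, 8.04, 8.93, 9.13 and 8.14 in Adck2+/- muscle, 0.99 higher (adjusted p = 0.0307), while the other Phka1 probes differed by 0.12 and 0.15. The Phka1 groups did not overlap. The Gyg probe ILMN_2661635 gave 11.19, 11.26, 11.04, 11.39 and 11.39 in WT and 11.71, 11.69, 12.04, 11.97 and 11.60 in Adck2+/- muscle, 0.55 higher (adjusted p = 0.0246), beside 0.29 for the brighter Gyg probe. The Gyg groups did not overlap either. Leaving out single muscle arrays moved the adjusted p of the Pfkm probe between 0.0154 and 0.0868, of the Phka1 probe between 0.0229 and 0.0836 and of the Gyg probe between 0.0186 and 0.0662, with each difference above 0 throughout. Which transcript each probe reads could not be settled from the files.

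**Figure D4:**
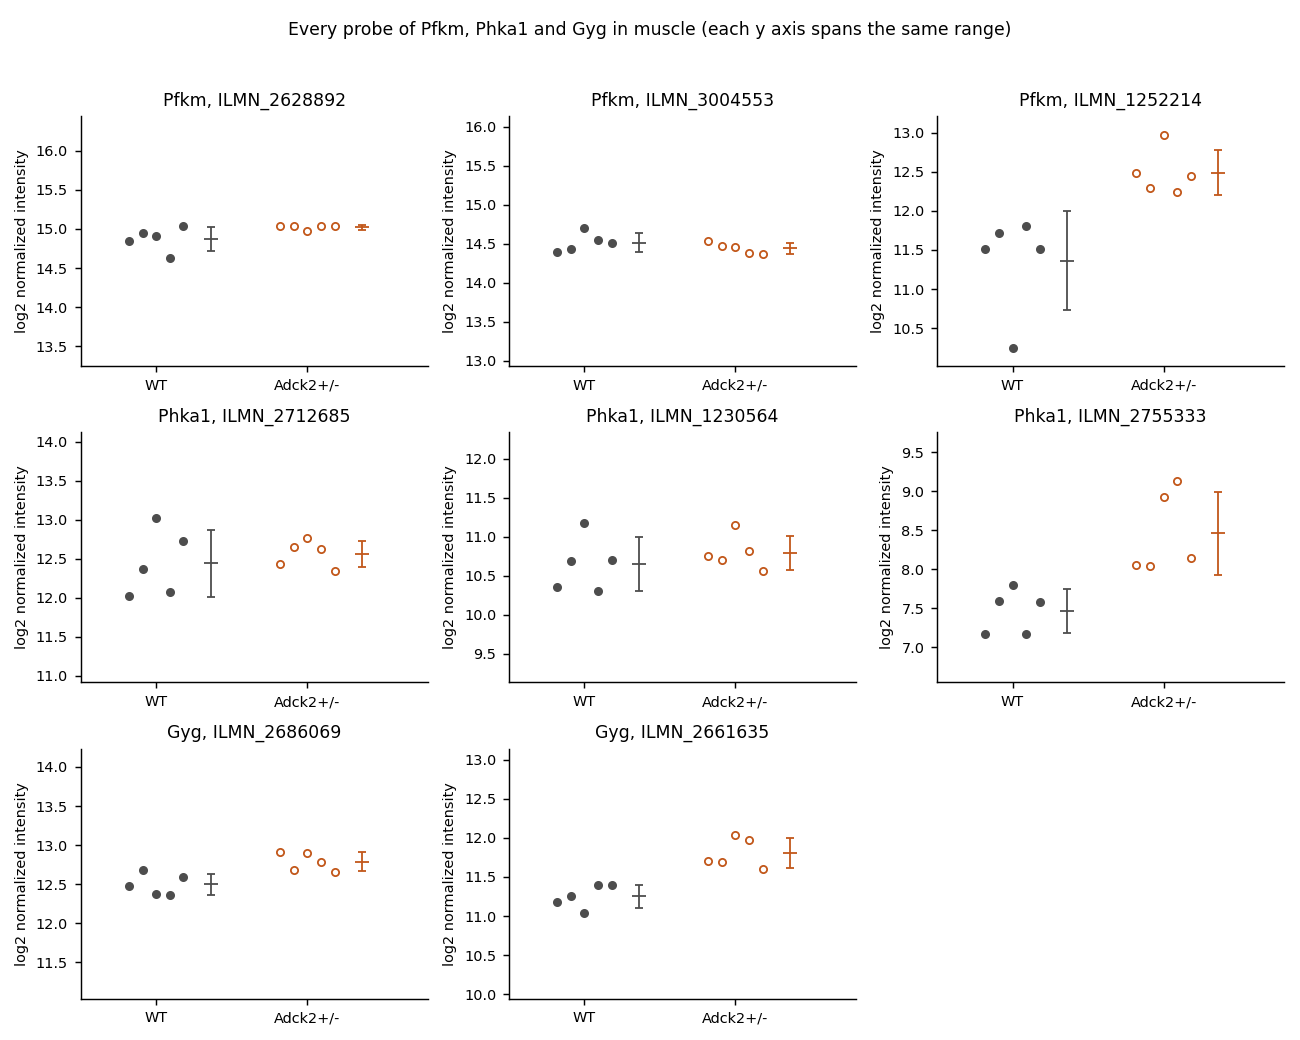
Every kept probe of Pfkm, Phka1 and Gyg on the muscle arrays (log2 normalized intensity, y axis), WT filled and Adck2+/- open (x axis), with the mean and SD of 5 arrays as bars. The dimmer probe at the right end of each row lies higher in Adck2+/- mice, by 1.13 for Pfkm, 0.99 for Phka1 and 0.55 for Gyg, and the other probes lie closer to WT.

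In liver none of the 21 kept genes passed, beside 0.0118% of all 8484 genes called by limma, and none had an unadjusted p under 0.05, against 7.07% of all genes. Of the 32 probes of the set tested by themselves none was called, beside 0.00881% of all probes. The median difference was 0.02, against 0.01 over all genes. For 12 of the 21 genes the 95% confidence interval lay within 0.5 log2 units of 0 and for 20 within 1. The exception was Gys2 (-0.36 ± 0.68, interval -1.84 to 1.11).

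Phkb had the smallest p in liver, with 8.99, 8.52, 8.23, 8.54 and 8.49 in WT and 8.04, 8.24, 8.39, 8.04 and 8.50 in Adck2+/- mice, -0.31 ± 0.15 (adjusted p = 0.743). A dimmer Phkb probe, detected on 8 liver arrays, did not repeat this, with means of 5.66 in WT and 5.67 in Adck2+/- mice. Hk2 gave 6.39, 6.78, 7.22, 7.24 and 6.96 in WT and 7.27, 7.43, 7.38, 7.29 and 6.70 in Adck2+/- mice, 0.30 ± 0.19 (adjusted p = 0.843). In both genes the groups overlapped, and Hk2 was low on Adck2+/- 5. Aldoa gave 10.39, 10.51, 10.94, 10.49 and 10.60 in WT and 10.51, 10.32, 10.31, 10.46 and 10.55 in Adck2+/- mice (-0.16 ± 0.12). For Tpi1 the WT arrays read 13.72, 13.60, 13.48, 13.76 and 13.55 and the Adck2+/- arrays 13.85, 13.65, 13.79, 13.97 and 13.47 (0.12 ± 0.12). For Pkm the WT arrays read 8.75, 8.78, 8.67, 8.70 and 8.59 and the Adck2+/- arrays 9.02, 8.44, 9.00, 9.02 and 8.61 (0.12 ± 0.14). None of these passed the test.

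In liver several genes took their lowest or highest values on the 3 arrays that stood apart. WT 3, Adck2+/- 1 and Adck2+/- 4 lay below the other 7 arrays for 6 of the 21 genes, Gys2, Pgam1, Phkb, Pklr, Pygb and Slc2a2, a position found for 11.2% of all genes. They lay above the others for Eno3, Pfkl and Phka2, 3 of 21, against 16.5% of all genes. Gys2 showed it most, with 5.51 to 6.23 on the 3 arrays and 7.80 to 8.84 on the other 7. Pklr read 7.13 to 7.40 and 7.70 to 8.43, and Slc2a2 11.83 to 11.90 and 12.10 to 12.86. These positions are those of the brightest probe of each gene. The dimmer probes of Slc2a2, Pfkl, Phka2 and Phkb did not repeat them, whereas a dimmer Pklr probe did. For Pygl, which is not counted, the dimmer probe read 10.95 to 11.71 on the 3 arrays and 12.05 to 12.68 on the others. The 3 arrays were not chosen by the labels, and both genotypes were among them. No fixed rule set them apart, so the counts are a description and no test. Without the 3 arrays the genotype difference of Gys2 was 0.38 in place of -0.36, that of Slc2a2 was 0.04 and that of Pklr 0.35, and no gene of the set was called. Slc2a2 rested on its brightest probe. With all liver arrays its dimmer probes lay higher in Adck2+/- mice, with means of 9.27 against 8.92 in WT and 9.00 against 8.70. Neither was called by itself, and the mean of the gene's probes gave 0.18 (adjusted p = 0.945, limma).

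The third question was whether the genotype acted differently on the tissues. The interaction was fitted for the 18 genes kept in both tissues, and none passed, with 0.0409% of all 7339 genes called by limma and no gene of the set at an unadjusted p under 0.05, against 14.9% of all genes. The smallest p belonged to Aldoa, whose genotype difference was 0.30 ± 0.15 higher in muscle (interval -0.0043 to 0.61, adjusted p = 0.343). For Gyg it was 0.51 ± 0.31 and for Pkm -0.27 ± 0.16. Gys1 and Pgk1 did not pass the filter on detection in liver, and their genotype effects could not be compared between the tissues.

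Genes around the set were followed from a list of 60 others of the same pathways, of which 48 had a probe. In muscle 34 were kept. Of these, 2 were called, both higher in Adck2+/- mice, and none was called lower. Over all genes 1.89% were called. Values above 0 were found for 24 of the 34, with a median of 0.12, against 47.8% of all genes. Ppp1cb encodes a catalytic subunit of protein phosphatase 1, which activates glycogen synthase and switches off phosphorylase. It read 11.26, 11.32, 10.25, 11.23 and 10.98 in WT and 12.07, 11.94, 12.49, 12.09 and 12.14 in Adck2+/- muscle, 1.14 ± 0.20 (adjusted p = 0.0211), and its second probe gave 1.08. The groups did not overlap, and WT 3 was again the lowest array. Without WT 3 it was 0.94 higher (adjusted p = 0.0164), and without WT 5 or without Adck2+/- 3 the adjusted p was 0.0638 and 0.0608. The call was also lost with all 20 arrays in 1 fit (1.18, adjusted p = 0.0943) and with the second deposited table, where the difference was 0.25 (adjusted p = 0.9997). That table was fitted without background correction or normalization, and it held another probe's values for 2165 of 25697 probes. Whether Ppp1cb was among these was not tested.

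Arnt encodes the partner of hypoxia-inducible factors, which are known to drive glycolytic genes. It read 5.74, 5.95, 5.36, 5.60 and 6.18 in WT and 6.64, 6.78, 6.81, 6.69 and 6.12 in Adck2+/- muscle, 0.84 ± 0.17 (adjusted p = 0.0382). Its lowest Adck2+/- array, Adck2+/- 5, lay just below the highest WT array, and the dimmer probe differed by 0.41 and was not called. The call was lost on leaving out any 1 of 7 of the 10 arrays, with adjusted p from 0.0667 to 0.0973. It was also lost without background correction (0.30, adjusted p = 0.0515), without a filter on detection (adjusted p = 0.0633) and with the second deposited table (0.40, adjusted p = 0.796). The limits of that table given for Ppp1cb apply here too.

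Of the other listed genes, Slc16a3, whose product MCT4 exports lactate from glycolytic muscle, had the next smallest p and read 6.85, 6.33, 7.50, 6.65 and 6.89 in WT and 6.65, 5.71, 6.14, 5.72 and 6.30 in Adck2+/- muscle, -0.74 ± 0.23 (adjusted p = 0.102). Its groups overlapped and it did not pass.

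In liver 31 of the 60 were kept and none was called. The 3 with the smallest p were Ppp1r3c (0.67 ± 0.25, adjusted p = 0.600), Slc2a3, the gene of glucose transporter GLUT3 (0.51 ± 0.21, adjusted p = 0.660), and Ppp1r3b (0.42 ± 0.19, adjusted p = 0.702). Ppp1r3c and Ppp1r3b encode subunits that bring protein phosphatase 1 to glycogen. Ppp1r3c read 13.01, 13.04, 11.87, 13.54 and 12.60 in WT and 13.38, 13.63, 13.66, 13.46 and 13.28 in Adck2+/- liver, with WT 3, 1 of the arrays that stood apart, the lowest.

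**Figure D5:**
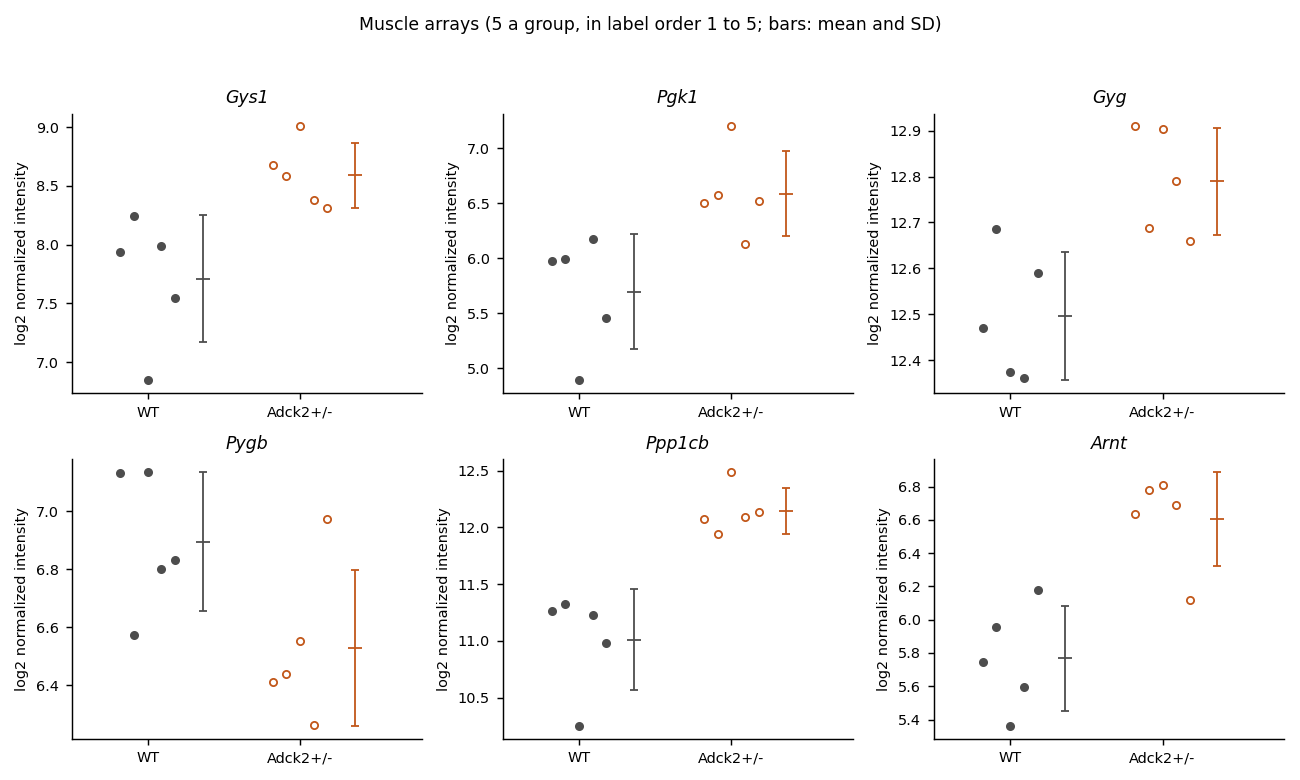
Level of 6 genes on the muscle arrays (log2 normalized intensity, y axis; each panel has its own range) in WT (filled) and Adck2+/- mice (open, x axis), with the mean and SD of 5 arrays as bars. Gys1 and Ppp1cb do not overlap between the genotypes. Of the 6, Ppp1cb (adjusted p = 0.0211) and Arnt (0.0382) passed the threshold.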

How the data were processed

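RNA of liver and gastrocnemius muscle from WT and Adck2+/- mice was hybridized to Illumina bead arrays, 5 for each group. The methods of the study name an Affymetrix array, whereas the labels and the probe identifiers are those of Illumina. The authors deposited the mean bead signal intensity of each probe, linear and not normalized between arrays, with a detection p-value for each probe and array. Scanner software and scaling were not given in the sources used here. A second deposited table held the same intensity values, with another probe's values for 2165 of 25697 probes, and was used only as an alternative.

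Intensities were background-corrected from the detection p-values (normexp, offset 16), quantile normalized and converted to log2 with limma 3.58.1 in R 4.3.3. Genotype fits were normalized within a tissue, and tissue and interaction fits over all 20 arrays. A probe was kept in a tissue when its detection p was under 0.05 on 5 or more of 10 arrays, and the brightest kept probe stood for a gene. Linear models with moderated variance were fitted over all kept genes, and p-values were adjusted by the method of Benjamini and Hochberg, with 0.05 as the threshold. Errors after ± are standard errors of a difference. No count stands behind a signal, so precision rests on 5 arrays a group.

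Values by array were given for the isozyme sets, for called genes and for the 5 genes with the smallest p in each genotype comparison, and for the other pathway genes that were called, with the 3 smallest p in each tissue. The genes and lists were chosen with earlier results of these data known. Alternatives were another offset, background, normalization, filter, probe rule, array weights, replicate block, the methods' paired t-test and leaving out arrays. The scripts were tested on simulated data. Figures were drawn with matplotlib 3.10.9.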

Additional observations from a re-analysis of the deposited data

Results flagged for a closer look

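In 9 of 92 groups of 5 arrays tested, 1 array lay far from the other 4 by Dixon's criterion, which chance alone meets in about 1 of 20 groups. In muscle, Adck2+/- 5 lay low for Eno3 (14.57, others 14.74 to 14.77), Phkg1 (13.08, others 13.24 to 13.30) and Phkg2 (6.51, others 7.20 to 7.40). Pfkm in Adck2+/- 3 read 14.97, where the other 4 arrays shared the top normalized value of 15.04. In liver, WT 3 lay high for Eno3 (7.91, others 7.20 to 7.22) and low for Gys2 (6.23, others 7.80 to 8.41). Adck2+/- 5 was low for Hk2 (6.70, others 7.27 to 7.43), Adck2+/- 3 was high for Pygb (7.53, others 6.57 to 6.81), and WT 1 was low for Phka2 (8.33, others 9.12 to 9.32).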

How the results depend on the processing

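Whether the replicate numbers pair the arrays could not be settled, as the labels do not say. Of the same-numbered WT and Adck2+/- arrays, 1 of 5 pairs deviated together in each tissue, with a correlation over 0.1. That cutoff does not exclude a pairing. With the replicate block no gene of the set was called in either genotype comparison, the interaction had 0 calls over all genes, muscle had 0 calls over all genes against 159, and liver had 1 as before. The block also ended the muscle calls of Ppp1cb (adjusted p = 0.107) and Arnt (adjusted p = 0.117) and the Adck2+/- tissue call of Gapdh (adjusted p = 0.0712), as the methods' t-test did for the first and the second (adjusted p = 0.281 and 0.285). In muscle the set had 0 calls. It had 3 with each probe by itself (Gyg, Pfkm, Phka1), beside 5.62% of all probes called. It had 1 with the mean of a gene's probes (Gyg, 0.42, adjusted p = 0.0433) and 1 with array weights (Gys1, 0.87, adjusted p = 0.0470). The next paragraph gives the counts over all genes. With all 20 arrays in 1 fit it had 2 (Gys1, 0.70, adjusted p = 0.0466, and Pgk1, 0.91, adjusted p = 0.0217). In that fit the second Gys1 probe stood for the gene. Without WT 2 and Adck2+/- 5 the set had 3 (Gys1, Pygb, Pygl), where leaving out these arrays had to widen each difference. Leaving out single arrays gave 0 to 1, the 1 being Gys1 without its lowest Adck2+/- array. Over all alternatives the adjusted p of Gys1 ranged from 0.0279 to 0.306.

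Over all genes in muscle, the 159 calls became 310 with median scaling (79 higher, 231 lower), 575 with each probe by itself, 70 without a filter on detection, 315 with the mean of a gene's probes, 353 with array weights (175 higher, 178 lower), 494 with all 20 arrays (140 higher, 354 lower), 51 with the second deposited table (14 higher, 37 lower) and 728 without WT 2 and Adck2+/- 5 (234 higher, 494 lower). Leaving out single arrays gave 32 (without WT 5) to 701 (without Adck2+/- 5). The methods' paired t-test at p of 0.05 or less gave 1411 of 8424 genes in muscle, with 2 of 25 in the set (Aldoa and Gapdh). In liver it gave 478 of 8484 genes, with 0 of 21 in the set. After Benjamini-Hochberg adjustment both tissues had 0.

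In liver the set had 0 calls under every alternative run. The single call over all genes became 3 with median scaling, 0 without a filter, 2 with array weights, 9 with all 20 arrays, 6 with the second table, 0 without WT 3, Adck2+/- 1 and Adck2+/- 4, and 0 to 2 without single arrays. The median of all genes moved from 0.01 to 0.16 with median scaling and to 0.34 without normalization between arrays, and that of the set from 0.02 to 0.17 and 0.36.

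The tissue differences of the set were 16 called in WT and 17 in Adck2+/- mice when detection in both tissues was required, which removes the genes measured in 1 tissue. In the main fits 75.9% of all 7339 genes kept in both tissues were called in WT. In Adck2+/- mice 79.4% of all 9563 genes kept in either tissue were called. Without single arrays the WT comparison had 26 calls in the set throughout and 7285 to 7498 over all genes, and the Adck2+/- comparison had 26 to 27 and 7409 to 7625. The tissue difference of Gapdh in Adck2+/- mice turned to -0.020 without normalization between arrays, and it was 0.14 with median scaling (adjusted p = 0.498). The median of all genes in that comparison moved from 0.02 to -0.20 with median scaling and to -0.36 without normalization, and the calls split into 3841 higher and 3751 lower, 3096 and 4112, and 2354 and 4035. In the interaction the set had 0 calls throughout, and the 3 calls over all genes became 1 with median scaling, 0 with each probe by itself, 5 without normalization, 14 without a filter and 0 to 139 without single arrays (139 without muscle Adck2+/- 5). The all-gene median moved from -0.03 to -0.23 and -0.39, and that of the set from 0.04 to -0.10 and -0.26. The causes were not tested. Signals near the top of the range in muscle, and near background for Pgk1, Pygb and Pfkp, limit what these arrays resolve.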

Other observations

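Among the genes around the set, Pfkfb4, which encodes a bifunctional enzyme that sets the level of fructose 2,6-bisphosphate, an activator of phosphofructokinase, had probes that read differently in muscle. It was chosen after its values were seen. The dim probe ILMN_2760468 read 5.71, 5.41, 5.02, 4.96 and 4.84 in WT and 6.28, 6.52, 7.02, 5.97 and 6.55 in Adck2+/- muscle. The groups did not overlap, and the difference was 1.28 (adjusted p = 0.00904, limma, each probe tested by itself). The brighter probe read 10.68, 11.07, 11.48, 10.91 and 11.28 and 11.23, 11.85, 11.79, 11.31 and 10.92, 0.33 higher (adjusted p = 0.329), with overlapping groups.

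The Pfkm probe ILMN_1252214, both Gys1 probes, Pgk1 and both kept Ppp1cb probes shared their extreme arrays in muscle, with WT 3 the lowest of 10 and Adck2+/- 3 the highest. WT 3 was also the array with the low slow fibre markers, whereas Adck2+/- 3 lay at 0.18 on the same list, among the other Adck2+/- arrays (0.12 to 0.18). The pattern was noticed in the data and was not tested.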
